A study of Mus musculus with 2 samples.

Results

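The genes described here build the nuclear pore and carry cargo through it. They were chosen by gene symbol: every non-control probe whose accession resolved to a nucleoporin named Nup plus a number, or to a member of the Kpna, Kpnb, Ipo, Tnpo or Xpo families named with a number, except Xpo5 and Xpo6. The rule found 39 genes with 56 probes among 20659 named genes on the array. Of these, 38 were well above background on both arrays, by the flag of the scanner software, and Kpna7, an importin alpha gene, was above background on neither. The 38 comprised 19 nucleoporin genes and 19 carrier genes. The set was proposed with results of these arrays already known, so its differences are given as a description and no test was applied to them.

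The data were 2 Agilent mouse arrays, each read in a single colour (Cy3), of total RNA from RAW246.1 cells, a mouse line that the labels give as macrophage, grown in DMEM. One array held RNA of a culture given PBS as the mock treatment, and the other RNA of a culture given synthetic miR-122, a liver microRNA, at a stated 5 μg/mL; the labels name no strain, age or time after treatment. With 1 array in each group there is no replicate check, so no value has a standard deviation between cultures and none has a p-value. Both samples carry 1 treatment text, and the title of the miR-122 sample reads as if the microRNA was left out, so the direction of every difference rests on the source name and description of that sample. The comparison asks which transcripts differ between cells given the microRNA and cells given PBS.

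A level is the log2 signal minus the 75th percentile of its array, and a difference is the level on the miR-122 array minus that on the PBS array. The 75th percentile itself lay 0.28 log2 units lower on the miR-122 array, a difference of -0.28, so that a gene with equal signals on both arrays has a positive difference. No spot was saturated. Of 39429 probes, the PBS array had 28302 well above background and the miR-122 array 27568. Macrophage genes were present on both arrays: 9 of 10 listed markers had a probe and all 9 were measured, among them Csf1r, with signals of 46202 and 22246, and Cd14, named after its value was seen, with signals of 31514 and 30847. The 9 markers had 5 negative and 4 positive differences, with a median of -0.24. Of 5 hepatocyte markers, 1 was above background on both arrays, with signals of 30.4 and 50.2. Being measured did not mark a cell type. Also measured were all 4 neutrophil markers with a probe, 3 of 5 T and NK cell, 3 of 5 B cell, 3 of 5 fibroblast and 2 of 4 epithelial markers. The neutrophil marker Elane had signals of 1532 and 1334, above the 184 and 228 of the macrophage marker Spi1, named after its value was seen.

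The nuclear pore is a ring of protein subcomplexes set in the nuclear envelope. Scaffold nucleoporins shape the ring, channel nucleoporins with repeats of phenylalanine and glycine form the selective barrier, and peripheral nucleoporins face the cytoplasm or form a basket in the nucleus. Importins bind cargo in the cytoplasm and release it when they meet the GTP-bound form of the small GTPase Ran in the nucleus, whereas exportins bind cargo together with Ran-GTP and release it outside. In macrophages this traffic brings transcription factors such as NF-kB subunits and STAT proteins into the nucleus after stimulation.

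Most of the set was lower on the miR-122 array, with the most negative differences in Nup85 of the Y complex scaffold and Nup210 of the pore membrane. Of the 38 measured genes, 29 had a difference below 0 and 9 above 0, with a median of -0.26, against a median of 0.09 over all 15017 named genes measured on both arrays, of which 39.7% had a difference below 0. At least 1.5-fold lower were 9 of the 38 genes, or 23.7%, against 5.99% of all genes, and 2 were at least 2-fold lower, or 5.26%, against 1.78%. At least 1.5-fold higher was 1 gene, or 2.63%, against 12.1%, and no member was 2-fold higher, against 4.57%. Nup43 and Nup155 had the next most negative differences, and Nup98, Kpna3 and Kpna4 the most positive.

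**Figure D1:**
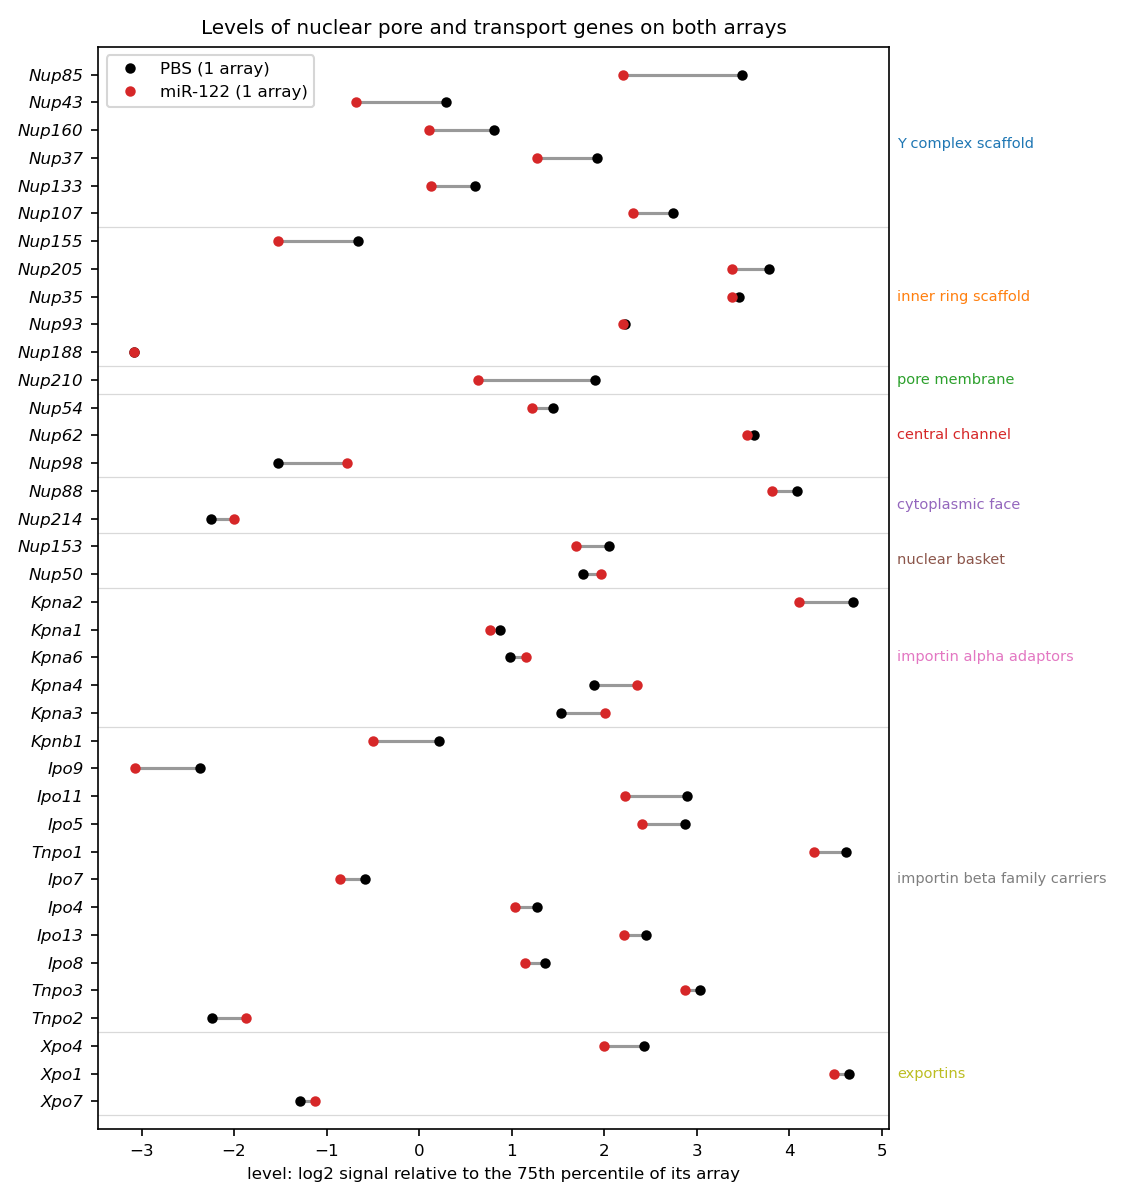
Level of each of the 38 measured genes on the PBS array (black) and the miR-122 array (red), as log2 signal relative to the 75th percentile of the array, grouped by role. Levels of different genes come from different probes and are not comparable with each other; the line within a gene is the difference, which runs to the left for Nup85 (3.49 to 2.20) and to the right for Nup98 (-1.53 to -0.78).

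These counts moved with the scaling. When each array was centred on its median instead, all differences shifted down, the median of all genes became -0.08 and that of the set -0.43. The set then had 14 genes past 1.5-fold on the lower side, where 10.5% of all genes lay, and 0 on the higher side, where 7.53% lay. The gap between the median of the set and that of all genes was -0.35; it is the same under both scalings by construction, since they differ by a constant on each array. It was -0.28 with quantile normalization and -0.27 with loess.

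The sequence just before the start of the genes is shown for the members with the largest differences in each direction whose RefSeq window lies outside the span of their own gene, so that genes that differed in opposite directions can be compared. The windows are 250 bases upstream of the start, read 5′ to 3′ on the strand of the gene in build GRCm38.p6, and capitals mark any match to 1 of 6 motifs searched on both strands. These were the NF-Y motif CCAAT, the cell cycle homology region TTTGAA, the E2F motif TTTNGCGC, an NRF1 core written GCGCATGC, the ETS motif CCGGAAG and a core of the interferon-stimulated response element written GAAANNGAA. The NRF1 and interferon response motifs were replaced by these shorter forms after a first search with longer ones. Kpnb1, Ipo9 and Nup160 were lower, and Nup98 and Kpna4 higher, on the miR-122 array.
Kpnb1, chr11:97187893-97188142, minus strand: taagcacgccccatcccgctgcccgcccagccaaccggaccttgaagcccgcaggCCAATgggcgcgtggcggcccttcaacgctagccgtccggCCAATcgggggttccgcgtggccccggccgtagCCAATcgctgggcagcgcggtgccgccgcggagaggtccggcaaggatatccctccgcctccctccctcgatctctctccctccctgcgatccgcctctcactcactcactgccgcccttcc
Ipo9, chr1:135430500-135430749, minus strand: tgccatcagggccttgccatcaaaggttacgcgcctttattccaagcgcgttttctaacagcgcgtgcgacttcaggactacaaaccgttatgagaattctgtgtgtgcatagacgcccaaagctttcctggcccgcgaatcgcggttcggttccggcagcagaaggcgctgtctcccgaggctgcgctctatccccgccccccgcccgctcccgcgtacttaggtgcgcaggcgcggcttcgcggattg
Nup160, chr2:90676965-90677214, plus strand: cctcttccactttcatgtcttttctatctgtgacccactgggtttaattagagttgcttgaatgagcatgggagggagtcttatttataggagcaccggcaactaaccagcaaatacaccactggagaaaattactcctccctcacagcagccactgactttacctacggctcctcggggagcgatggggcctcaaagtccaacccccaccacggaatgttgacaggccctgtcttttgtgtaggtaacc
Nup98, chr7:102210167-102210416, minus strand: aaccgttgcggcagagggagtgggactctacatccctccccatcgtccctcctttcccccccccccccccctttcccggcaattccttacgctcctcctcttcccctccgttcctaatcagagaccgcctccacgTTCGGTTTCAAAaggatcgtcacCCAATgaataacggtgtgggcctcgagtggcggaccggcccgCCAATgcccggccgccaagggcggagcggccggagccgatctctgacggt
Kpna4, chr3:69127093-69127342, minus strand: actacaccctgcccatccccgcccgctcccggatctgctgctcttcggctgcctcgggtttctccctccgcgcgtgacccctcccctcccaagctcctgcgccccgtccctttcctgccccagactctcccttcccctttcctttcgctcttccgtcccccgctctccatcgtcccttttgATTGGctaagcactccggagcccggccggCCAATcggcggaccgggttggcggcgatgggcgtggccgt

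The CCAAT box occurred on both sides: 3 times before Kpnb1, which was lower, and 2 times each before Nup98 and Kpna4, which were higher. Nup98 also had a match to the cell cycle homology region that overlapped a match to the interferon response core, and the Ipo9 and Nup160 windows printed here had none of the 6, although another RefSeq window of Ipo9 held a CCAAT box. RefSeq windows were matched for 30 of the 38 measured genes, giving 37 windows. The CCAAT box was present in 48.6% of them against 33.8% of all 32851 windows, the ETS motif in 18.9% against 6.91% and the NRF1 core in 8.11% against 2.26%. The cell cycle homology region was in 18.9% against 16.0% and the interferon response core in 5.41% against 7.13%, while the E2F motif was in 0 of the 37 windows and in 1.13% of all windows. The windows of the set were richer in G and C, with a median of 64.4% against 52.4% over all windows, and the part of base composition in these shares was not tested. Genes with a difference below 0 held 29 of the 37 windows and those above 0 held 8. The ETS motif was in 7 of the 29 windows, those of Ipo4, Nup107, Nup155, Nup37, Nup54 and Tnpo3, and in 0 of the 8, whereas the interferon response core was in 0 of the 29 and in 2 of the 8, those of Nup98 and Tnpo2. The CCAAT box was in 13 and 5 windows, the cell cycle homology region in 5 and 2, and the NRF1 core in 2 and 1. Different motifs overlapped in 1 of the 37 windows, that of Nup98, and a match describes letters in the window, not a site in use.

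The rule took in 6 genes grouped here as the Y complex, the outer scaffold of the ring, and all were lower, with a median difference of -0.67. Of all measured genes, 39.7% had a difference below 0. Nup98, grouped with the channel, also encodes the Y complex subunit Nup96 and was higher, with a difference of 0.75. Nup85, a core Y complex subunit, had a PBS signal of 4743 and a miR-122 signal of 1597, a difference of -1.29 or 2.45-fold lower, the most negative of the 38. Nup43, a small subunit found in animals, had signals of 513.9 and 217.3, a difference of -0.97 or 1.95-fold. Nup160, in an arm of the Y, had signals of 740.7 and 376.1 and was 1.63-fold lower.

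The remaining genes of this group were also lower, by smaller amounts. Nup37, like Nup43 a small peripheral subunit, had signals of 1591 and 839.2 and was 1.56-fold lower. Nup133, at the stem of the Y, had signals of 637.8 and 380.0 and was 1.39-fold lower, and its stem partner Nup107 had signals of 2842 and 1719 and was 1.37-fold lower. In each of the 6 genes the difference was larger than the error that the scanner software attaches to it, a median of 0.20 log2 units over the 38 genes, which covers spot measurement and not the spread between cultures.

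The Y complex has further subunits outside the rule, and 2 of the 3 measured had small differences above 0, unlike the grouped genes. Seh1l and Sec13, which also serve in other complexes, had differences of 0.11 and 0.23, and Ahctf1, which seeds pore assembly on chromatin, had -0.27; these 3 genes were singled out after their values were seen. The signals of Sec13 were 1218 and 1176 and those of Seh1l 770 and 685. The difference of Seh1l was close to the median of all genes, 0.09, and gives it no clear direction.

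The inner ring, which lines the wall of the pore, was uneven, with a median of -0.08 over 5 genes. Nup155 had signals of 265.9 and 120.0, a difference of -0.87 or 1.83-fold lower. Nup205, one of the large scaffold subunits, had signals of 5793 and 3630 and was 1.32-fold lower. The other members lay near 0: Nup35, which binds Nup155, differed by -0.08 and Nup93, which anchors the channel, by -0.01, each below its software error of 0.20. A dim second probe of Nup93, with signals of 6.87 and 16.7, was above background on the miR-122 array only.

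Nup188, the relative of Nup205, was dim, and its probes did not agree. The brightest had signals of 49.8 and 41.2 and a difference of 0.00, another -0.52, and the third was above background on the PBS array only. The sign of Nup188 turned under 5 of 9 alternative processings, and it has no direction here.

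Nup210, an integral membrane protein of the pore, had signals of 1577 and 543.6, a difference of -1.26 or 2.39-fold lower. A second, dim probe of Nup210 had signals of 19.1 and 16.3 and a difference of 0.05, and the mean over both probes was -0.61. Among the membrane nucleoporins outside the rule, Ndc1, with signals of 2204 and 963, was 1.89-fold lower, whereas Pom121, named after its value was seen, differed by -0.12.

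**Figure D2:**
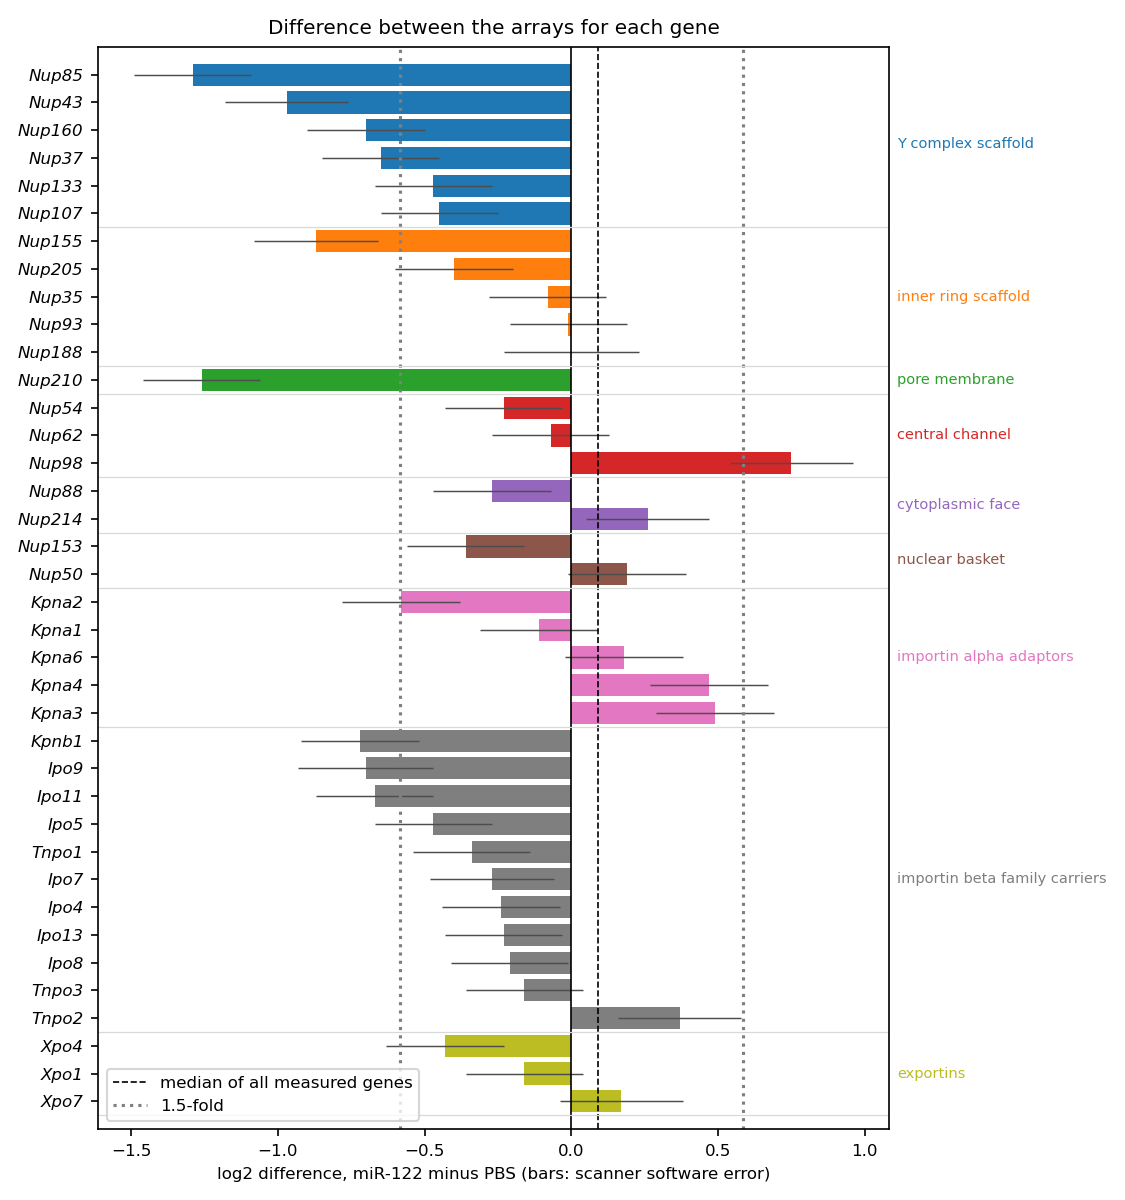
Log2 difference, miR-122 minus PBS, for each of the 38 genes, coloured by role; thin lines are the error given by the scanner software, the dashed line is the median of all measured genes (0.09) and the dotted lines mark 1.5-fold. All 6 genes grouped as Y complex extend to the left, from -0.45 for Nup107 to -1.29 for Nup85. Nup98, grouped with the channel, is the single bar beyond 1.5-fold on the right.

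Nucleoporins of the channel and the periphery differed in both directions, and Nup98 by the most. Nup98 carries repeats that form the barrier, and its transcript also encodes the Y complex subunit Nup96. It had signals of 145.6 and 202.5, a difference of 0.75 or 1.69-fold higher, the most positive of the 38. The difference was 0.58, just under 1.5-fold, with median scaling and with normexp background correction.

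The other channel genes were close to the middle of the set. Nup54 differed by -0.23, with signals of 1152 and 810.2, and its second probe by -0.13. Nup62, its channel partner, differed by -0.07, with signals of 5163 and 4057. On the cytoplasmic face, Nup88 differed by -0.27, with signals of 7186 and 4912, while its binding partner Nup214 was dimmer, with signals of 88.5 and 87.2, and differed by 0.26.

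The nuclear basket genes Nup153 and Nup50 went opposite ways, and both were measured on 10 spots of 1 probe. The spots of Nup153, which tethers the basket to the ring, ran from 1672 through a median of 1738 to 1876 on the PBS array and from 1053 through 1116 to 1237 on the miR-122 array, without overlap in signal. Its difference was -0.36, with a standard deviation between spots of 0.059 and 0.074 log2 units. The spots of Nup50, which helps to release cargo from importin alpha, ran from 1390 through 1436 to 1511 and from 1311 through 1344 to 1469.

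The ranges of Nup50 overlapped in signal before scaling. The 75th percentile differed by -0.28 log2 units, miR-122 minus PBS, so this overlap does not describe the scaled levels. The difference after scaling was 0.19, with spot standard deviations of 0.032 and 0.047. It was as low as 0.02 under median scaling. These spots repeat a measurement of 1 RNA on 1 array and carry no information on the spread between cultures.

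Importin alpha adaptors, which link cargo with a nuclear localisation signal to importin beta, split within the family, with 2 negative and 3 positive differences and a median of 0.18 over 5 genes. Kpna2 had signals of 10876 and 5992 and a difference of -0.584, just outside the 1.5-fold threshold of -0.585, while Nup37, the last gene inside it, had -0.646. The 4 probes of Kpna2 agreed, with differences of -0.58, -0.68, -0.56 and -0.62, and their mean of -0.61 passed the threshold. RefSeq also lists a pseudogene of Kpna2, and whether probes share its sequence was not tested.

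Kpna3 and Kpna4, close relatives known as carriers of NF-kB subunits, were higher. Kpna3 had signals of 1213 and 1405 and was 1.40-fold higher, and its other probes differed by 0.34 and 0.23. Kpna4 had signals of 1562 and 1786 and was 1.39-fold higher. Both stayed above 0 under the 10 alternative processings, at no less than 0.31 for Kpna3 and 0.29 for Kpna4. Kpna4 has 1 probe, so the filters on dim probes and the averaging over probes could not change its value.

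Kpna1 and Kpna6, of the branch known for carrying STAT proteins, differed little. Kpna1 differed by -0.11, with signals of 777.1 and 593.3. Kpna6 differed by 0.18, with signals of 828.2 and 775.2, while its other probe differed by -0.12. Kpna7 had signals of 2.53 and 3.25, not well above background on either array, and has no fold.

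**Figure D3:**
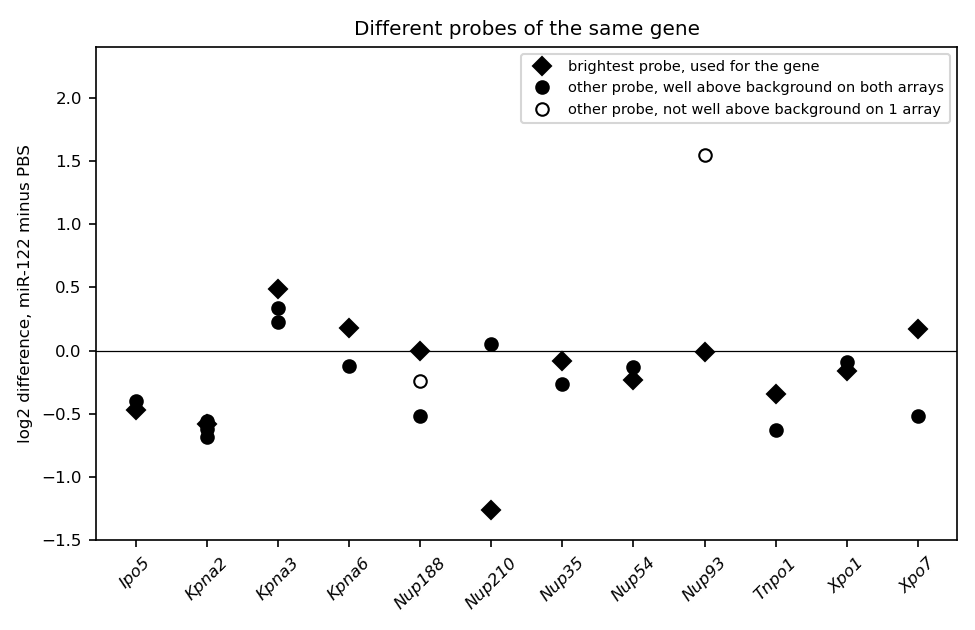
Log2 difference, miR-122 minus PBS, of every probe of the 12 measured genes that had several. Diamonds are the brightest probe, used for the gene, and open circles are probes above background on 1 array only. Kpna7, not measured, is left out. The 4 probes of Kpna2 and the 3 of Kpna3 lie together. Those of Nup210, Xpo7, Kpna6 and Nup188 do not share 1 sign, with the brightest of Nup188 at 0.00.

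The importin beta family, the carriers that cross the pore, was lower in 10 of 11 members, with a median of -0.27 and 3 at least 1.5-fold lower. Over all measured genes, 39.7% had a difference below 0 and 5.99% were at least 1.5-fold lower. Kpnb1, importin beta itself and the partner of the importin alphas, had signals of 490.2 and 246.5 and was 1.64-fold lower. Ipo11 had signals of 3135 and 1626 and was 1.59-fold lower. Ipo9, a carrier of histones H2A and H2B, was dim, with signals of 81.4 and 41.3, and was 1.63-fold lower, but differed by -0.24 with normexp.

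Another 7 carriers had differences between -0.47 and -0.16, all under 1.5-fold. Ipo5, which imports ribosomal proteins and histones, differed by -0.47, with signals of 3100 and 1849, and its second probe by -0.40. Tnpo1, the carrier of hnRNP proteins, differed by -0.34, with signals of 10309 and 6704, and a dim second probe by -0.63. Ipo7, a partner of importin beta in histone H1 import, differed by -0.27, with signals of 281.2 and 193.1.

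Ipo4, Ipo13, Ipo8 and Tnpo3 had the smallest negative differences of the family. Ipo4, a carrier of histones H3 and H4, differed by -0.24, with signals of 1025 and 714.4. Ipo13, which carries cargo both ways, differed by -0.23, with signals of 2300 and 1618, and Ipo8 by -0.21, with signals of 1080 and 772.7. Tnpo3, the carrier of serine- and arginine-rich splicing factors, differed by -0.16, with signals of 3468 and 2556, within its software error. The exception was Tnpo2, the close relative of Tnpo1, whose signals were 89.2 and 94.9 and whose difference was 0.37.

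Exportin genes differed by less than 1.5-fold. Xpo1, the main export receptor for proteins with a leucine-rich signal, had signals of 10585 and 7835 and a difference of -0.16, and a second probe differed by -0.09. Xpo4, the exporter of a translation factor, had signals of 2273 and 1391 and was 1.35-fold lower. Xpo7 had signals of 171.8 and 159.7 and a difference of 0.17, but its second probe differed by -0.52 and its sign turned with median scaling and with the mean over probes. The exportin genes left out by the rule went both ways: Xpo5, which exports microRNA precursors, differed by -0.28 and Xpo6, the exporter of actin, by 0.28.

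Members were also split by mean level over both arrays, which takes in the miR-122 level and so depends in part on the difference itself. Kpnb1 (0.22 on the PBS array, -0.50 on the miR-122 array) and Nup43 (0.29 and -0.68) fell in the dimmer part through their miR-122 level. For this reason no contrast is drawn between the parts in the share at least 1.5-fold lower. Of the 10 measured genes with a mean level below 0, 5 had negative and 5 positive differences, against 24 negative and 4 positive among the 28 brighter genes. In the same level ranges, 2896 of 8411 dimmer and 3071 of 6606 brighter genes of the whole array had negative differences. At least 1.5-fold lower were 4 of the 10, or 40.0%, and 5 of the 28, or 17.9%; over all genes in the same level ranges these were 505 of 8411 and 395 of 6606. Over all genes the dimmer part of that split also had the more positive median, 0.14 over 8411 genes against 0.03 over 6606. A loess fit that removes the trend with level left 30 of the 38 differences below 0, with a median of -0.26 against 0.00 over all genes. Among the 4096 genes whose mean level lay within the middle range of the set, from -0.01 to 2.62, 51.7% had a difference below 0 and 7.91% were at least 1.5-fold lower.

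Genes of the same pathway outside the rule, and the lists that follow, were counted in the same way. The shares over all measured genes to set beside them were 39.7% with a difference below 0 and 5.99% at least 1.5-fold lower. At least 2-fold lower were 1.78%, and at least 1.5-fold higher 12.1%. Of 13 other nucleoporin genes measured, 8 had negative differences and 1, Ndc1, passed 1.5-fold, while the median was -0.12; Ranbp2, the large cytoplasmic filament protein, was 1.40-fold higher, with signals of 3360 and 3875, Aaas was 1.40-fold lower and the dim Nup210l differed by 0.34. Of 8 other carriers, 7 had negative differences, with a median of -0.25, led by the tRNA exporter Xpot at -0.58, the importin alpha recycler Cse1l at -0.35 and the snRNP adaptor Snupn at -0.32.

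The Ran cycle had 5 negative and 2 positive differences over 7 genes, with a median of -0.27. Rcc1, the chromatin-bound exchange factor that loads Ran with GTP, was 1.66-fold lower, Rangrf 1.63-fold lower and Rangap1, which triggers GTP hydrolysis, 1.40-fold lower, and Ranbp1 differed by -0.27. Ran itself, named after its value was seen, differed by 0.02, with signals of 34409 and 28830. The mRNA export list had 9 negative and 9 positive differences, a median of -0.01 and 0 of 18 genes past 1.5-fold in either direction; the largest were Nxt1 at -0.49, Zc3h11a at 0.32, and Chtop and Thoc6, both at 0.29.

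The nuclear lamina and envelope list held both directions, with 11 negative and 5 positive differences over 16 genes and a median of -0.14. Tmpo, a lamina-associated protein gene, was 1.85-fold lower and Lmnb1, which encodes lamin B1, 1.72-fold lower. The torsin activator genes Tor1aip1 and Tor1aip2 were 2.61-fold and 1.89-fold higher.

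**Figure D4:**
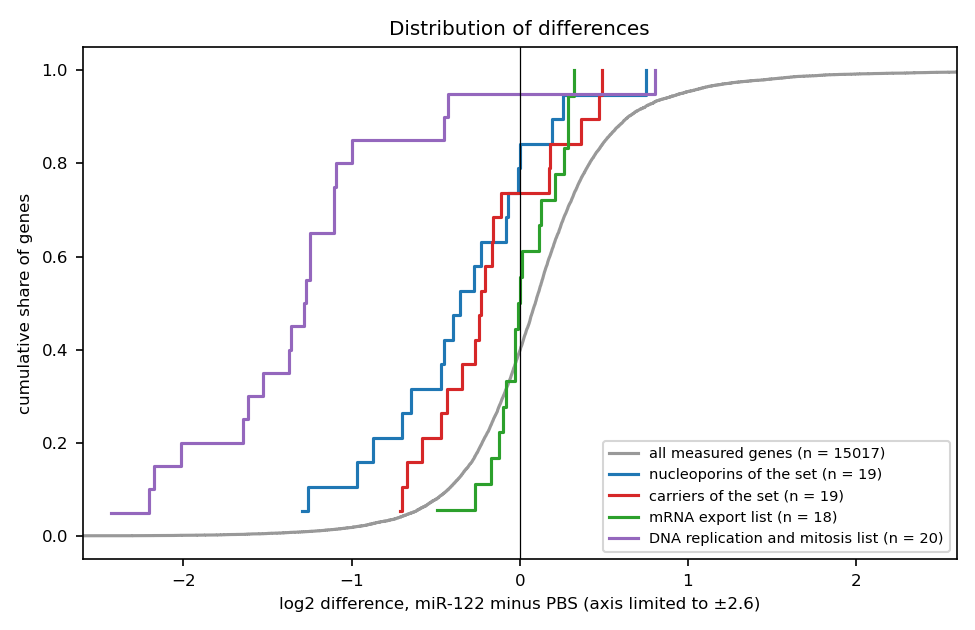
Cumulative share of genes by log2 difference, miR-122 minus PBS, for the nucleoporins (blue, 19 genes), the carriers (red, 19), the mRNA export list (green, 18), the DNA replication and mitosis list (purple, 20) and all 15017 measured genes (grey). The nucleoporins have a median of -0.36 and the carriers of -0.23, between the mRNA export list at -0.01 and the replication and mitosis list at -1.27.

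Genes of DNA replication and mitosis moved with the set and by more. Of 20 listed genes, 19 had a negative difference, 17 passed 1.5-fold and 16 passed 2-fold on the lower side, and the median was -1.27; Tk1 was 5.40-fold, Rrm2 4.62-fold, Ccna2 4.52-fold and Mki67 4.05-fold lower. Their part in the differences of the pore and transport genes was not tested. In RNA from a whole culture, fewer cells of a type and less RNA per cell cannot be told apart. The reference genes differed by 0.21 for Actb, 0.18 for Gapdh and -0.25 for Hprt, and other processings took Actb to -0.02 and Gapdh to -0.05 at their lowest.

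The processing left most signs in place. Over the alternatives, 28 of the 38 genes had negative differences in every one that measured them, 7 had positive differences in every one, and 3, Nup188, Nup93 and Xpo7, changed sign. Of the 9 genes at least 1.5-fold lower, 8 stayed so throughout, the exception being Ipo9. Not every alternative could turn a sign. For a gene with 1 probe, the dim-probe filters and the averaging over probes return the same value. The authors' values gave nearly the same results as quantile normalization, with a median of -0.31 for the set in both. Besides Nup35, Nup93, Nup188 and Tnpo3, the differences of Nup50, Nup62, Kpna1, Kpna6, Xpo1 and Xpo7 were smaller than their software errors of 0.20 or 0.21. For Nup50 that error is the average for 1 spot, not reduced for its 10 spots, whose standard deviations were 0.032 and 0.047. Of the 11 genes of the set with several measured probes, 4 had probes of opposite sign. Different probes of the same gene had a pooled standard deviation of 0.31 log2 units over these 11 genes and 0.30 over 3575 genes of the array. This is a spread within 1 pair of arrays and carries no information on the spread between cultures.

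**Figure D5:**
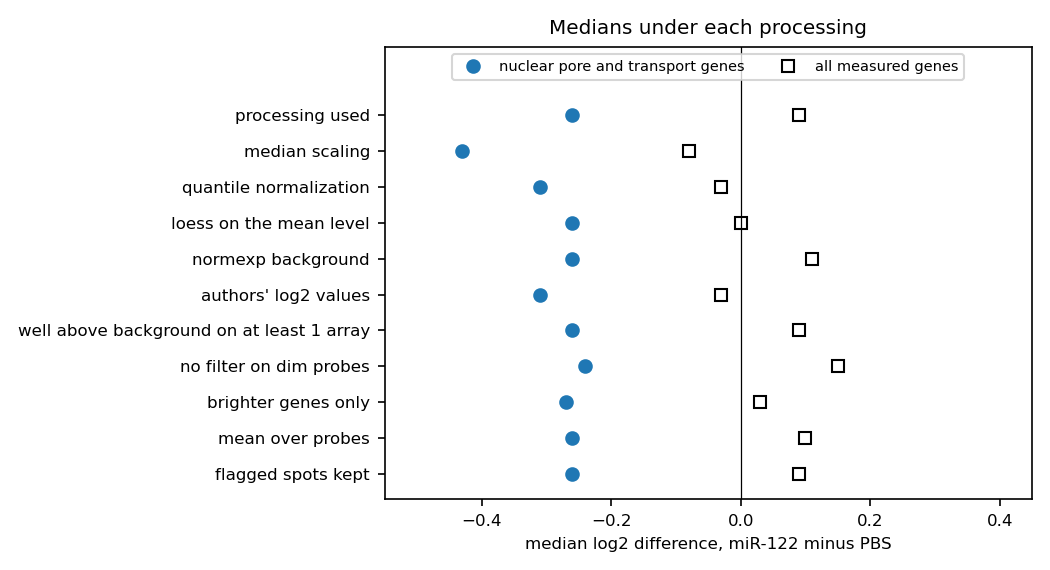
Median log2 difference, miR-122 minus PBS, of the set (filled circles) and of all measured genes (open squares) under the processing used and 10 alternatives. The median of the set lies between -0.43 and -0.24 and is below that of all genes in each.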

How the data were processed

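The source names of the samples gave the groups, each of 1 array. The deposited scanner files hold spot intensities, background-subtracted, detrended and not normalized between arrays; per the file headers, the software was Agilent Feature Extraction, version 11.0.1.1. The deposited series matrix holds the authors' processed log2 values, made by steps not given in the sources used here; its columns share a median of 5.16 and correlate at 0.997 with the log2 signal of their own array and, for the PBS column, at 0.985 with that of the other.

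Control spots (1377 of 44397) and spots flagged as outliers (145 on the PBS array, 196 on the miR-122 array) were left out. Spots of a probe were averaged as log2 and the 75th percentile of each array was subtracted. Accessions, stripped of versions, were looked up in a RefSeq gene table (GRCm38.p6, names and promoters only; the array design names mm9), which named 27234 of 39429 probes. Of the probes above background on either array the brightest stood for the gene, which counted as measured when that probe was above background on both. No test was run; genes were counted at 1.5-fold and 2-fold beside all measured genes.

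The members and lists were chosen with earlier results of these data known. The rule for names allows every member, the 4 largest differences of each other list, Xpo5, Xpo6, Actb, Gapdh and Hprt. Names outside it, such as Cd14, are marked as named or singled out after their values were seen. Alternatives were median scaling, quantile normalization, loess (span 0.3), normexp (offset 50) on median spot signals, the authors' values, 3 other dim-probe filters, averaging the probes of a gene, and keeping flagged spots. The script was checked on simulated data. R 4.3.3, limma 3.58.1, Python 3.11.15, numpy 2.4.6, pandas 2.3.3 and matplotlib 3.10.9 were used.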

Additional observations from a re-analysis of the deposited data

How the results depend on the processing

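With median scaling the median difference of the set was -0.43 instead of -0.26, 14 genes instead of 9 were at least 1.5-fold lower, 4 instead of 2 at least 2-fold lower, and 0 instead of 1 at least 1.5-fold higher. The count at least 1.5-fold higher was also 0 with normexp and 2 with no filter on dim probes, and with the mean over probes 1 gene was at least 2-fold lower. All other alternatives kept these counts within 1.5 times and the median between -0.31 and -0.24. The brighter-genes alternative measured 37 of the set. No paired analysis was possible because each group has 1 array, and for the same reason no replicate could be left out. Dim probes limit Ipo9, Nup188, Nup214 and Tnpo2, whose signals lay between 41.2 and 94.9.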
